A study of Mus musculus with 9 samples.

Results

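The genes whose products fuse or divide mitochondria were followed in the gastrocnemius, a large muscle of the calf, in a study titled as one of female mice. They were chosen by name (Opa1, Mfn1, Mfn2, Dnm1l, Fis1, Mff, Mief1, Mief2 and Mtfp1). All 9 had a row among the 56791 genes of the deposited count table, and all 9 were among the 17534 genes that passed the filter on low counts. RNA sequencing gave 3 groups of 3 libraries. Young vehicle (3M in its titles) and aged vehicle (23M) animals were given saline. Aged GB animals, labelled aged with no number in their titles, were given ginkgolide B (GB), a lactone from ginkgo leaves, at 12 mg/kg body weight. Every group was dosed by mouth each day for 2 months. The labels name no strain and do not say whether a library is 1 animal or a pool. Tests therefore rest on the spread between libraries, which may be technical.

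Mitochondria of muscle fibres form a network that is joined by fusion and cut by fission. The outer membranes are fused by the mitofusin GTPases MFN1 and MFN2, of which MFN2 also tethers mitochondria to the endoplasmic reticulum, and the inner membranes by OPA1, a GTPase that also holds the folds of the inner membrane, the cristae, in shape. Fission is carried out by the dynamin-related GTPase encoded by Dnm1l, which is drawn from the cytosol to the outer membrane by the receptors encoded by Mff, Mief1 and Mief2 and, in some settings, Fis1. Mtfp1 encodes an inner membrane protein that promotes fission. These activities are controlled to a large part by protein cleavage and phosphorylation, which RNA levels do not show.

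Total counts were 51543383 to 61680520 in the young vehicle, 52068522 to 54095457 in the aged vehicle and 39478427 to 44294097 in the GB libraries. The GB libraries stood apart. Mitochondrially encoded genes made up 24.3 to 26.1% of their counts, while the aged vehicle libraries had 13.9 to 15.3% and the young 8.6 to 10.2%. A count was present for 18678 to 19362 genes with GB and for 22616 to 24185 genes in vehicle libraries. No label gives a batch, and treatment and library preparation cannot be told apart. Levels are given as counts per library size after TMM scaling (CPM). Defining markers of skeletal muscle (8 genes such as Acta1 and Ckm) summed to 72900 to 81400 CPM in young vehicle, 61600 to 63400 CPM in aged vehicle and, with GB, 128000 to 153000 CPM. By edgeR (adjusted p under 0.05), 4.32% of all genes tested were higher and 4.28% lower with age. For aged GB against aged vehicle 24.4% were higher and 28.8% lower. All marker counts here stand beside these shares. Of the 8 muscle markers, 1 was higher and 3 lower with age, and 5 were higher and 1 lower with GB. Mb was the 1 higher with age (1010 to 2540 CPM) and the 1 lower with GB (269 CPM). Ckm was not called with GB (6570 to 6070 CPM, edgeR adjusted p = 0.445). Slow fibre markers (8 genes such as Myh7) summed to 1520 to 2130, 114 to 159 and 1220 to 1550 CPM in young vehicle, aged vehicle and GB libraries, with 7 of 8 lower with age and 7 of 8 higher with GB. The 8 endothelial markers summed to 404 to 419, 599 to 635 and 302 to 366 CPM, with 3 higher with age and 5 lower and 1 higher with GB. Sums for 6 smooth muscle markers were 331 to 359, 654 to 758 and 399 to 441 CPM, with 4 higher with age and 4 lower with GB. Sums for 6 fibroblast markers were 813 to 1550, 736 to 945 and 511 to 650 CPM, with 1 higher and 1 lower with age and 5 lower and 1 higher with GB. Sums for 6 macrophage markers were 92.4 to 93.6, 102 to 113 and 74.9 to 81.8 CPM, with 1 higher with age and 4 lower and 1 higher with GB. The 6 adipocyte markers summed to 269 to 428, 250 to 283 and 611 to 828 CPM, with 3 lower with age and 5 higher with GB. No listed marker was at 0 in any group, but Tnnc2 and Tagln were low, with group means of 0.661 to 0.966 and 0.194 to 1.19 CPM. The part of fibre and cell type makeup in the results was not tested, and in whole muscle fewer cells of a type and less RNA per cell cannot be told apart.

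Upstream sequence is shown for the 3 genes on which the results turn: Mfn2, which was called in all 3 comparisons, and Opa1 and Fis1, which had the largest fall and the largest rise with GB. Each line gives the 250 bases before a RefSeq start site (GRCm38.p6), 5′ to 3′ on the strand of the gene, and for Mfn2 and Fis1 the start site farthest upstream was taken. The intervals are chr16:29579084-29579333 (plus strand) for Opa1, chr4:147904910-147905159 (minus strand) for Mfn2 and chr5:136953025-136953274 (plus strand) for Fis1. Capitals mark matches on either strand to the motifs searched, which were those of NRF1, ERR, ETS, SP, CCAAT, the core of the CRE and the E-box.
Opa1: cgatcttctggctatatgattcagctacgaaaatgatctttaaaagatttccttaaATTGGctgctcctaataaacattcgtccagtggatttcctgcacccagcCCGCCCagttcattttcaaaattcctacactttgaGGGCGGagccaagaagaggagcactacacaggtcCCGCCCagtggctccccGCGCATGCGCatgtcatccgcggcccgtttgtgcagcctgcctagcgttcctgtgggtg
Mfn2: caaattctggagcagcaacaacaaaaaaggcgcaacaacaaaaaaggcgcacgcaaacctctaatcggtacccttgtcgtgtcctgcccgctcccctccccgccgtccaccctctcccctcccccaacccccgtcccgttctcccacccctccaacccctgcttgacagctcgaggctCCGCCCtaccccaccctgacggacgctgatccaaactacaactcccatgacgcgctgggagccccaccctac
Fis1: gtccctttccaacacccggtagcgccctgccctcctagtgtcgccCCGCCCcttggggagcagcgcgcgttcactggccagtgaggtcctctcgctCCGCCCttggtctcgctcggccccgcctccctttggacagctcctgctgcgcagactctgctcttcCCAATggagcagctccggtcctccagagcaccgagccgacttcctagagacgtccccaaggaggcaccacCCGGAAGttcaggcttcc
In Opa1 the NRF1 motif (the run of capitals nearest to the start site, where the base after the first 4 may be any) began 59 bases before the start site, beside 3 SP matches and 1 CCAAT match. The NRF1 motif was present in 3.74% of the 32851 upstream windows of the same length. In Fis1 a match to the ETS motif (CCGGAAG) began 18 bases before the start site, with 2 SP matches and 1 CCAAT match. The Mfn2 window held 1 SP match, and windows of the other Mfn2 start sites held none. The printed Mfn2 window ends at position 147904910, upstream of the gene's start in GENCODE M21 at 147904704. The ETS motif, in 6.91% of all windows, was also in those of Mfn1 and Mief1. The SP motif (GGGCGG) was present in 32.7% of all windows. The CCAAT motif was present in 33.8% of them. The ERR motif (TCAAGGTCA), in 0.387% of all windows, was in no window of the 9 genes. The CRE core (TGACGT), in 6.47% of all windows, was in those of Mief1 and of other Mfn2 start sites. The E-box (CACGTG), in 6.02% of all windows, was in that of Mief2. No printed match overlapped another. A match is a run of letters and not a measured binding site.

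Per kilobase of gene length, Mfn2 was the most abundant of the 9 genes in young muscle and Mief1 the least. Lengths were those of the deposited table, which for all 9 genes equalled the union of exons in GENCODE M21. In young vehicle libraries Mfn2 was at 118 ± 3.97 CPM per kilobase (mean ± SD, n = 3), a higher level than that of 98.7% of the genes tested. The next levels were 40.0 ± 3.76 for Fis1, 32.6 ± 3.78 for Mief2 and 32.1 ± 1.21 for Mfn1, and these neighbours overlapped between libraries. Mtfp1 followed at 24.2 ± 1.92, Opa1 at 13.8 ± 0.857, Dnm1l at 10.4 ± 0.450, Mff at 8.62 ± 0.617 and Mief1 at 2.64 ± 0.135 CPM per kilobase, none overlapping the next. The genes stood in the same order in aged vehicle libraries, where Mief2 and Mfn1 overlapped. In GB libraries the order differed: Fis1 came first at 142 ± 10.4 CPM per kilobase, Mief2 next at 60.2 ± 4.69, then Mfn2 at 47.0 ± 1.53, and Opa1, at 5.50 ± 0.242, stood next to last. By GENCODE M21 (GRCm38) Opa1 spans chr16:29579334-29654884, Mfn2 chr4:147873599-147904704 and Fis1 chr5:136953275-136966234, and the other 6 genes lie elsewhere, Dnm1l on chromosome 16 too.

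**Figure D1:**
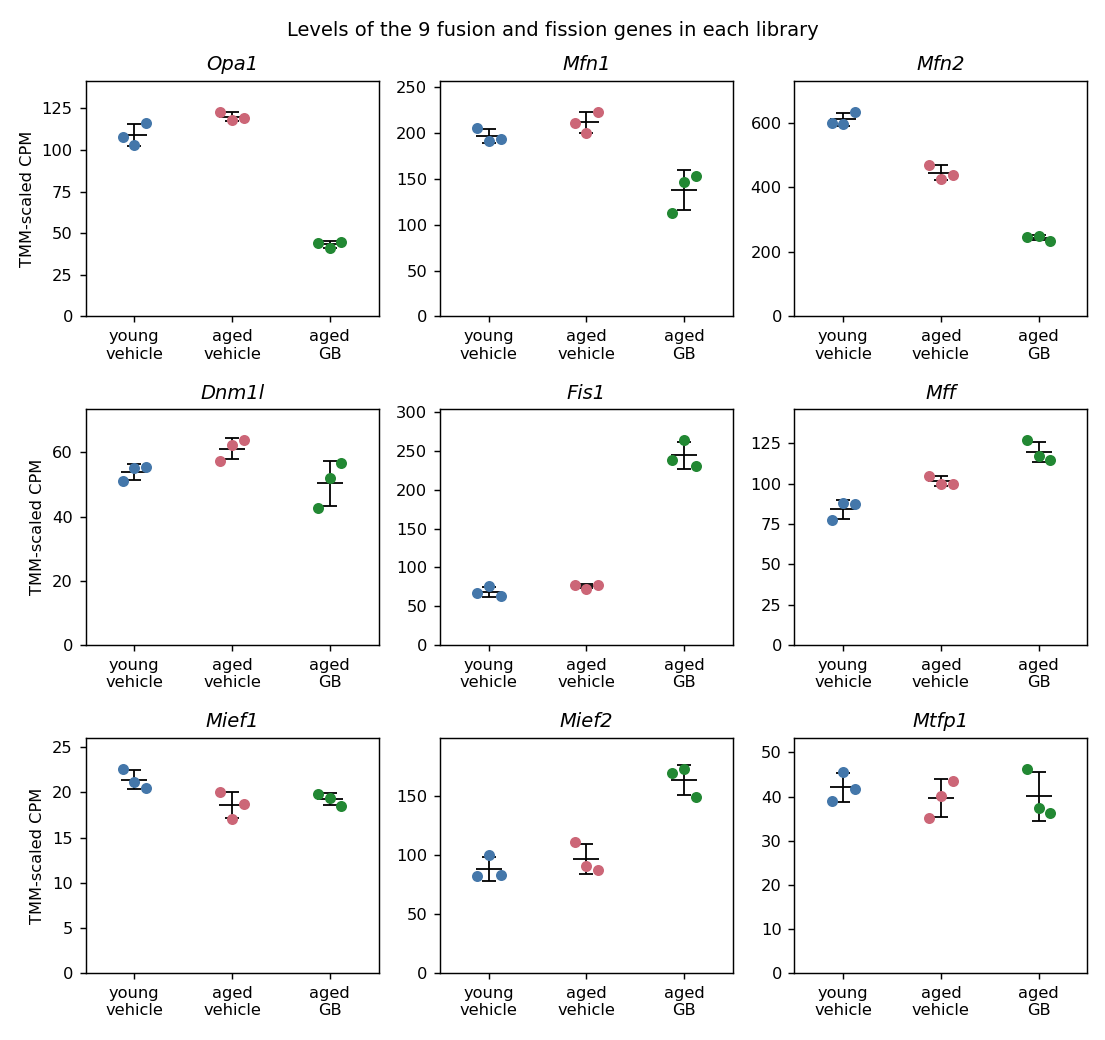
Each panel plots 1 gene, with TMM-scaled CPM on an axis from 0 and the 3 groups along the bottom. Points are libraries, and bars show the mean ± SD of 3 libraries. Opa1, Mfn1 and Mfn2 were lowest in the GB group, Fis1 and Mief2 were highest there, and Mief1 and Mtfp1 overlapped between aged vehicle and GB.

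Aged and young vehicle muscle were compared first, as the series design names them. Mfn2 fell with age and was the only 1 of the 9 genes called in edgeR's quasi-likelihood test (adjusted p under 0.05), where 8.6% of all genes tested were called, 4.32% higher and 4.28% lower. Its levels were 600, 597 and 634 CPM in the young vehicle libraries and 470, 426 and 439 CPM in the aged vehicle libraries. Every aged library lay below every young library. The log2 fold change was -0.46 (SE 0.07, edgeR adjusted p = 0.00192), or 72.9% of the young level, and it was called under all 23 alternatives (-0.50 to -0.39). The other mitofusin gene, Mfn1, was at 205, 191 and 193 CPM in young and 211, 200 and 223 CPM in aged vehicle libraries. The groups overlapped and Mfn1 was not called (0.11 on the log2 scale, SE 0.10, edgeR adjusted p = 0.622). Opa1, of inner membrane fusion, was at 108, 103 and 116 CPM in young and 123, 118 and 119 CPM in aged vehicle libraries. These libraries did not overlap, and Opa1 was not called (0.14 on the log2 scale, SE 0.08, edgeR adjusted p = 0.334).

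On the fission side edgeR called no gene with age. Of these genes 1, Mff, had an unadjusted p under 0.05, and DESeq2 and limma-voom called it. Mff, for an outer membrane receptor of the fission GTPase, was at 77.2, 88.0 and 87.2 CPM in young and 105, 100 and 99.9 CPM in aged vehicle libraries, which did not overlap. Its log2 fold change was 0.27 (SE 0.08, edgeR adjusted p = 0.0564). Mff was called by DESeq2 (adjusted p = 0.0245), by limma-voom (0.0359) and in an edgeR fit of the vehicle libraries alone (0.0409). It was also called with a filter of at least 1 CPM in 3 libraries (0.0471) and without aged GB replicate 1 (0.0377). Under the other 18 alternatives Mff was not called. Leaving out any 1 vehicle library gave an edgeR adjusted p of 0.0993 to 0.185. With an offset for gene length its log2 fold change was 0.23 (edgeR adjusted p = 0.136). With an offset for length and GC content it was 0.08 (edgeR adjusted p = 0.725). The adjusted p of Mff lay between 0.0245 and 0.725 in the alternatives. Dnm1l, the fission GTPase itself, was at 51.2, 55.0 and 55.5 CPM in young and 57.4, 62.3 and 63.8 CPM in aged vehicle libraries (log2 fold change 0.18, SE 0.10). The receptor gene Mief1 was at 22.6, 21.1 and 20.5 CPM in young and 20, 17.1 and 18.7 CPM in aged vehicle libraries (log2 fold change -0.20, SE 0.10). Neither gene overlapped between the groups and neither was called (edgeR adjusted p = 0.336 and 0.275). Fis1, Mief2 and Mtfp1 overlapped between the groups, with log2 fold changes of 0.14, 0.12 and -0.09. Libraries did not overlap for 5 of the 9 genes, 3 higher and 2 lower, while this held for 34.4% of all genes tested, 17.5% higher and 16.9% lower. The median log2 fold change of the 9 genes was 0.12, and that of all genes was 0.

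**Figure D2:**
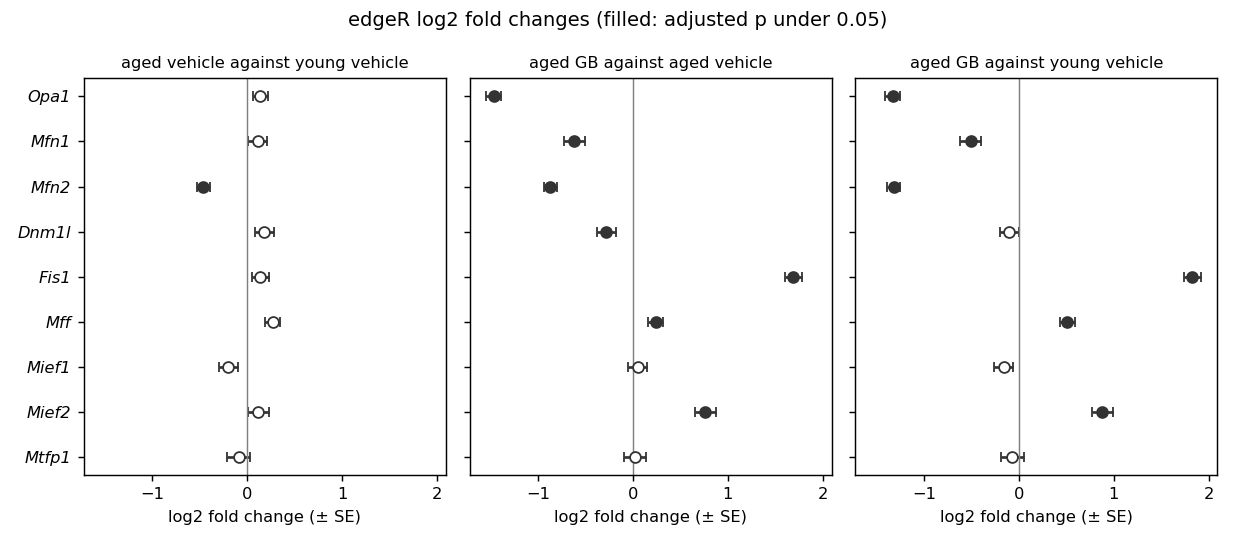
Each panel shows 1 comparison, with edgeR's log2 fold change ± SE along the bottom and the 9 genes down the side. Filled points had an adjusted p under 0.05. Mfn2 is the only filled point for age (-0.46), while with GB the filled points run from Opa1 at -1.47 to Fis1 at 1.69.

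Aged muscle with GB was then compared with aged vehicle muscle. The 3 fusion genes fell, and the fission genes did not move together. Of these, Fis1, Mief2 and Mff rose, Dnm1l fell, and Mief1 and Mtfp1 were not called. By edgeR 4 of the 9 genes fell and 3 rose, where 28.8% of all genes tested fell, 24.4% rose and 53.2% were called in all. With so large a share called, nothing particular to these 9 genes is read from their count. Their median log2 fold change was 0.02, against -0.05 for all genes. Libraries did not overlap for 7 of the 9 genes, 3 higher and 4 lower, and for 59.7% of all genes, 27.3% higher and 32.5% lower. Directions are relative to the TMM scale. When libraries were scaled by their totals alone the median of all genes moved by -0.57 on the log2 scale, 2030 genes rose and 8421 fell in place of 4281 and 5045, and of the 9 genes 7 fell and 1, Fis1, rose.

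Opa1, the inner membrane fusion gene whose upstream window is shown above, had the largest fall. It was at 123, 118 and 119 CPM with aged vehicle and 44.2, 41.1 and 44.6 CPM with GB. All GB libraries lay below all vehicle libraries, young ones included. The log2 fold change was -1.47 (SE 0.08, edgeR adjusted p = 1.85e-08), or 36.1% of the aged vehicle level. Of all genes tested, 11.9% had a lower log2 fold change. Mfn2 was at 470, 426 and 439 CPM with aged vehicle and 247, 250 and 235 CPM with GB, again without overlap. Its log2 fold change was -0.87 (SE 0.07, edgeR adjusted p = 5.88e-07), or 54.8% of the aged vehicle level. Mfn1 was at 211, 200 and 223 CPM with aged vehicle and 113, 147 and 153 CPM with GB. The groups did not overlap, and GB replicate 1 was the lowest. Its log2 fold change was -0.62 (SE 0.11, edgeR adjusted p = 0.000329). Opa1, Mfn1 and Mfn2 were called lower under all 23 alternatives, with log2 fold changes of -2.03 to -0.96, -1.19 to -0.26 and -1.43 to -0.67.

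Fis1, for a small tail-anchored protein of the outer membrane, had the largest rise. It was at 77.1, 72.6 and 77.4 CPM with aged vehicle and 238, 264 and 231 CPM with GB. The lowest GB library was far above the highest vehicle library. The log2 fold change was 1.69 (SE 0.09, edgeR adjusted p = 1.68e-08), a 3.23-fold rise, and it was called under all 23 alternatives (1.06 to 1.78). Of all genes tested, 92.9% had a lower log2 fold change. Mief2, a receptor anchored in the outer membrane, was at 111, 90.6 and 87.5 CPM with aged vehicle and 169, 173 and 149 CPM with GB, which did not overlap. It rose by 0.76 (SE 0.11, edgeR adjusted p = 0.000108) on the log2 scale. Scaled by totals alone Mief2 had 0.20 and was not called (adjusted p = 0.118, the highest among the alternatives, whose lowest was 4.05e-08).

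Of the remaining fission genes, 2 were called with small fold changes and 2 were not called. Mff was at 105, 100 and 99.9 CPM with aged vehicle and 127, 117 and 115 CPM with GB, without overlap. Its rise of 0.24 (SE 0.08, edgeR adjusted p = 0.0271) on the log2 scale turned into -0.33 with library totals alone (adjusted p = 0.00424). The Mff call was lost without aged vehicle replicate 2 (adjusted p = 0.0988) or 3 (0.105) and without GB replicate 1 (0.0911) or 2 (0.0556), and with no filter on low counts, its adjusted p lying between 1.03e-05 and 0.202 in the alternatives. Dnm1l was at 57.4, 62.3 and 63.8 CPM with aged vehicle and 42.8, 51.9 and 56.6 CPM with GB, where the highest GB library lay just below the lowest aged vehicle library. It fell by 0.28 (SE 0.10, edgeR adjusted p = 0.0398) on the log2 scale. The Dnm1l call was lost without young vehicle replicate 2 (adjusted p = 0.0543), aged vehicle replicate 2 (0.0892) or 3 (0.107) and GB replicate 1 (0.108, with -0.18) or 2 (0.0607). It was also lost with upper-quartile factors (0.145), the filter of 1 CPM (0.0671), a fit of the 2 groups (0.0602) and the length offsets, and its adjusted p was 1.41e-05 to 0.56 over the alternatives. Mief1 was at 20, 17.1 and 18.7 CPM with aged vehicle and 19.8, 19.4 and 18.5 CPM with GB. The groups overlapped (log2 fold change 0.05, SE 0.10, edgeR adjusted p = 0.736). Mtfp1 was at 35.1, 40.2 and 43.6 CPM with aged vehicle and 46.3, 37.5 and 36.3 CPM with GB, which also overlapped. Its log2 fold change was 0.02 (SE 0.12, edgeR adjusted p = 0.925), and with library totals alone Mief1 and Mtfp1 had -0.52 and -0.55 and were called lower (adjusted p = 0.001 and 0.0031).

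Log2 fold change with GB moved with gene length, and the 9 genes differ much in length. Over 17534 genes, which are not independent, Spearman's rho between length and log2 fold change was -0.345 with GB and 0.019 with age. Fis1, Mtfp1 and Mief2 are the short members, with 1714, 1738 and 2716 bases, and the other 6 have 5194 to 9757 bases. The median log2 fold change of the 1954 tested genes with a length near that of Fis1 (1372 to 2142 bases) was 0.57, and 88.3% of them lay below Fis1. For Opa1, of 7875 bases, the median of 2819 genes of like length (6300 to 9841 bases) was -0.45, and 11.5% lay below it. Mff is the longest, with 9757 bases, and 86.4% of the 1973 genes of like length, whose median was -0.60, had a lower log2 fold change. The other genes stood nearer the middle of genes of like length. Of those, 33.6% lay below Mfn1 (median -0.29), 21.2% below Mfn2 (-0.19) and 45.7% below Dnm1l (-0.19). For Mief2 it was 74.8% (median 0.23), for Mief1 75.2% (-0.47) and for Mtfp1 32.2% (0.57). With an offset for each library's trend with length, Opa1 had -1.0 (adjusted p = 4.68e-07), Mfn2 -0.67 (9.39e-06), Mfn1 -0.32 (0.016), Fis1 1.12 (4.4e-07), Mief2 0.51 (0.00253) and Mff 0.83 (1.03e-05). These 6 genes kept their direction and their call. Dnm1l was at -0.08 and no longer called (adjusted p = 0.56). Mief1 was called higher, at 0.53 (adjusted p = 0.00123), and Mtfp1 lower, at -0.55 (adjusted p = 0.000623). What part length has in the result of a single gene was not tested.

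**Figure D3:**
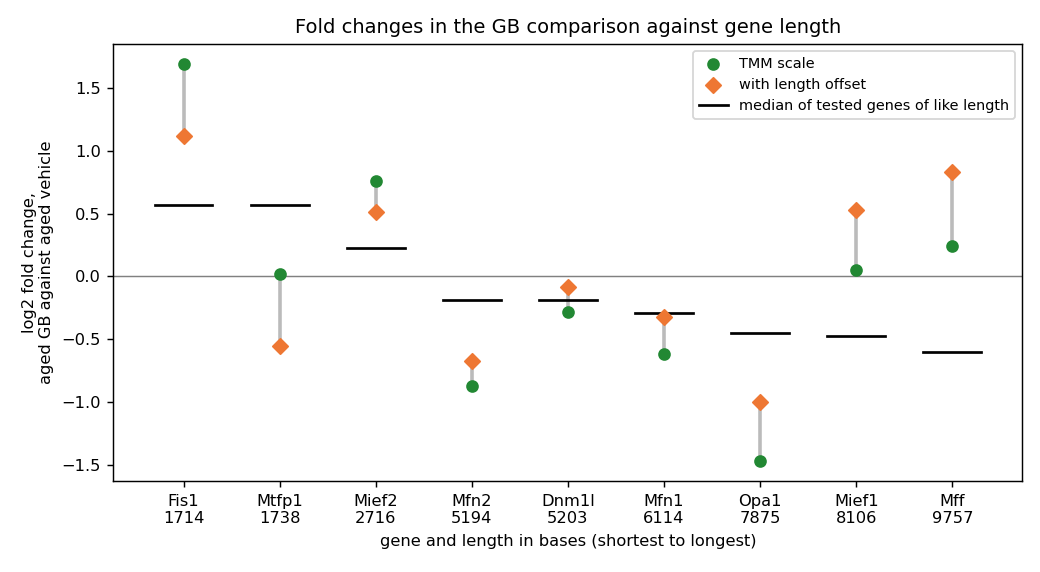
The plot shows log2 fold change of aged GB against aged vehicle for the 9 genes, ordered by length in bases. Circles are values on the TMM scale, diamonds are values with the length offset, and black bars are medians of tested genes of like length. Opa1 and Mfn2 stay below 0 and Fis1, Mief2 and Mff above it on both scales, while Mtfp1 moves from 0.02 to -0.55.

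The comparison of aged GB with young vehicle is not named in the series design and closes the triangle of the 3 groups. It shares its libraries with the comparisons above. By edgeR 3 of the 9 genes were lower with GB and 3 higher, where 29% of all genes tested were lower, 24.7% higher and 53.6% called in all. Scaling by totals alone gave 2117 genes higher and 8530 lower in place of 4323 and 5083. Mfn2 was lower in GB than in young muscle, at -1.32 on the log2 scale (SE 0.07, edgeR adjusted p = 1.59e-08). Its mean was 611 ± 20.6 CPM in young vehicle, 445 ± 22.7 CPM in aged vehicle and, with GB, 244 ± 7.92 CPM, and no 2 groups overlapped. Opa1 had -1.33 (SE 0.08) and Mfn1 -0.51 (SE 0.11), while Fis1 had 1.83 (SE 0.09), Mief2 0.88 (SE 0.11) and Mff 0.51 (SE 0.08), all called by edgeR. The Mfn1 call was lost with the length offset (-0.19, adjusted p = 0.113). Mff turned to -0.05 with library totals alone (adjusted p = 0.654). Dnm1l, Mief1 and Mtfp1 were not called on the TMM scale, at -0.10, -0.16 and -0.07 (edgeR adjusted p = 0.464, 0.228 and 0.638). Scaled by totals alone these genes had -0.66, -0.72 and -0.63 and were called lower. With the length offset Mief1 was called higher (0.31, adjusted p = 0.0258), Mtfp1 lower (-0.61, adjusted p = 0.000262) and Dnm1l was not called (0.13). Libraries did not overlap for 7 of the 9 genes, 3 higher and 4 lower, and for 60.7% of all genes, 27.5% higher and 33.2% lower.

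Ratios of 2 genes within a library do not depend on how libraries are scaled. They were formed from counts per kilobase for 5 pairs and compared between the groups with an exact two-sided permutation test, whose smallest p for 3 against 3 libraries is 0.1. Over the 15 tests the smallest value after Benjamini-Hochberg adjustment was 0.136, so no difference could pass the threshold. Mfn2 exceeded Mfn1 by 3.45, 3.67 and 3.86 times in the young vehicle libraries and by 2.62, 2.5 and 2.32 times in the aged vehicle libraries. The aged ratios lay below all young ones, with a difference of -0.56 on the log2 scale (exact p = 0.1). In GB libraries the Mfn2 to Mfn1 ratio was 2.57, 1.99 and 1.81, which overlapped the aged vehicle group (exact p = 0.3).

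Opa1 exceeded Dnm1l in every vehicle library and was below it in every GB library. The Opa1 to Dnm1l ratio was 1.23 to 1.39 in young vehicle, 1.24 to 1.41 in aged vehicle and 0.682, 0.523 and 0.520 in GB libraries (exact p = 0.1 for GB against aged vehicle). The Mfn2 to Dnm1l ratio had a geometric mean of 11.3 in young vehicle, 7.29 in aged vehicle and 4.87 in GB libraries, with no overlap between any groups. The Mff to Fis1 ratio was 0.202 to 0.244 in young vehicle, 0.227 to 0.243 in aged vehicle and 0.0780 to 0.0940 in GB libraries. Its difference between GB and aged vehicle, -1.45 on the log2 scale (exact p = 0.1), was -0.29 with the length offset. The Mief2 to Mief1 ratio was 10.9 to 14.2 in young vehicle, 14 to 16.6 in aged vehicle and 24.1 to 26.6 in GB libraries. Its difference of 0.72 between GB and aged vehicle was -0.01 with the length offset.

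**Figure D4:**
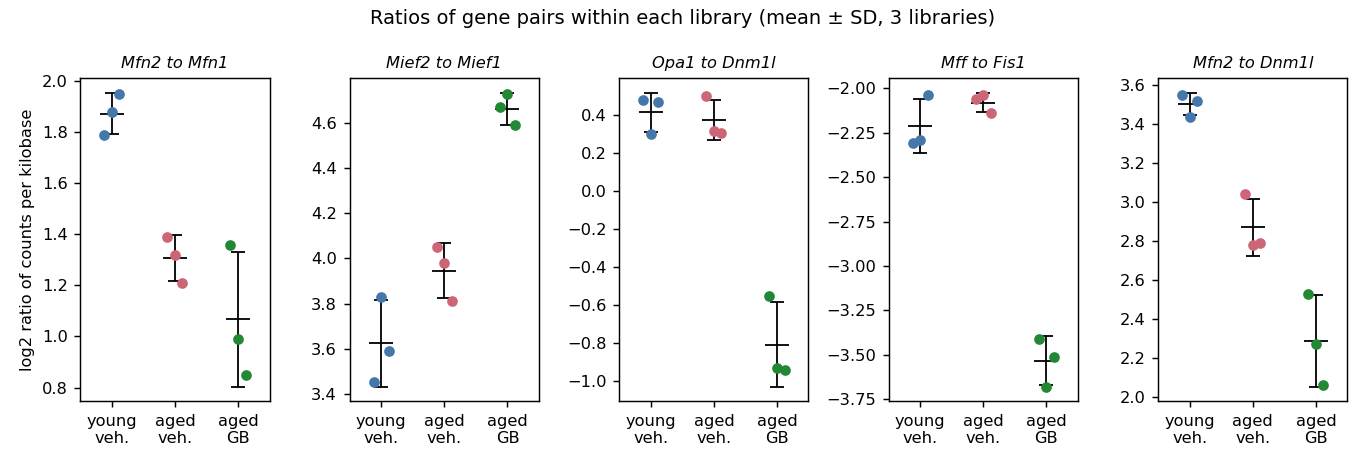
Each panel plots the log2 ratio of counts per kilobase of 2 genes in each library, with its own axis that does not start at 0. Points are libraries and bars show the mean ± SD of 3 libraries. The Mfn2 to Mfn1 ratio is lower in both aged groups than in young muscle, and the Opa1 to Dnm1l ratio is below 0 only in the GB libraries.

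Other genes of mitochondrial shape were described in 5 lists, whose counts stand beside 4.32% of all genes called higher and 4.28% lower with age, and 24.4% higher and 28.8% lower with GB. The first holds 8 genes that cut OPA1 or scaffold it in the inner membrane. Of these 1 was called higher with age and 0 lower, and 4 higher and 4 lower with GB. Yme1l1, a protease that cuts OPA1, rose from 52.3 to 67.3 CPM with age (0.36, SE 0.09). The Yme1l1 call was lost without young vehicle replicate 2 (edgeR adjusted p = 0.128) or 3 (0.095), without aged vehicle replicate 1 (0.0952) or 3 (0.0941) and with the length and GC offset (0.187). With GB, Yme1l1 fell from 67.3 to 39 CPM (-0.79, SE 0.09, and -1.35 to -0.31 over the alternatives). Afg3l2, a subunit of an inner membrane protease, fell from 97.3 to 36.9 CPM (-1.40, SE 0.09, and -1.97 to -0.73). Phb2, a prohibitin that scaffolds the inner membrane, rose from 66.8 to 106 CPM (0.66, SE 0.08), but had 0.09 and no call when libraries were scaled by totals alone. On that scale 0 of the 8 genes were called higher and 4 lower.

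Genes of the MICOS complex, which holds the junctions of the cristae, and of its partners made a list of 11. With GB 8 were called higher and 1 lower on the TMM scale, where 24.4% of all genes were higher and 28.8% lower. The median log2 fold change of the list was 0.76, against -0.05 for all genes. Scaled by totals alone 5 were higher and 4 lower, and with the length offset 7 were higher and 0 lower. The MICOS subunit gene Micos10 rose from 104 to 315 CPM (1.60, SE 0.08), and Chchd6, for another subunit, from 3.31 to 8.11 CPM (1.29, SE 0.23). Mtx1, an outer membrane partner, rose from 10 to 23 CPM (1.19, SE 0.13). All 3 were called under all 23 alternatives, at 1.04 to 1.69, 0.72 to 1.48 and 0.63 to 1.28. Immt, which encodes the core subunit and is named here after its value was seen, was the 1 gene called lower (-0.77, SE 0.08), and it was not called with the length offset (-0.09).

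With age, edgeR called 3 of the 11 genes of MICOS and its partners higher and 0 lower. Among all genes 4.32% were higher and 8.6% called in all. DESeq2 called 5 of the 11 genes and limma-voom 4, and 5 had an unadjusted p under 0.05 in edgeR. Mtx2, a partner and not a MICOS subunit, rose from 19.5 to 30.4 CPM (0.64, SE 0.10). It was called under all 23 alternatives. Apool rose from 22.6 to 29.3 CPM (0.37, SE 0.09), and Immt from 232 to 288 CPM (0.31, SE 0.08). The Apool call was lost without young vehicle replicate 1 (edgeR adjusted p = 0.0793), 2 (0.0742) or 3 (0.108), without aged vehicle replicate 2 (0.115) or 3 (0.0832), with upper-quartile factors and with the length and GC offset. The Immt call was lost under 13 of the 23 alternatives, among them leaving out any 1 of the 6 vehicle libraries (adjusted p = 0.0733 to 0.135) or GB replicate 2 (0.0568), and the length offset (0.125).

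Of 16 further genes that act on fusion or fission 14 were tested. Of these 2 were called higher with age and 0 lower, and 4 higher and 4 lower with GB. Miga1, a mitoguardin gene that promotes fusion, rose from 10.4 to 16.6 CPM with age (0.68, SE 0.11) and was called under all 23 alternatives. Inf2, for a formin that acts at fission sites, rose from 18.5 to 28.3 CPM (0.61, SE 0.17, edgeR adjusted p = 0.0494). The Inf2 call was lost under 10 alternatives, among them leaving out young vehicle replicate 2 (0.188) or 3 (0.189), aged vehicle replicate 1 (0.11), 2 (0.142) or 3 (0.12) and GB replicate 1 (0.0507) or 2 (0.0726). Akap1, an anchor of protein kinase A on the outer membrane, fell from 84.5 to 36.6 CPM with GB (-1.21, SE 0.10). Gdap1 and Miga2 rose by 0.57 (SE 0.21) and 0.56 (SE 0.21), and scaled by totals alone they had 0.01 and -0.02 and no call. The Gdap1 call was also lost without young vehicle replicate 3 (0.0514), aged vehicle replicate 2 (0.113) or 3 (0.15) and GB replicate 2 (0.0586) or 3 (0.153). The Miga2 call was also lost without young vehicle replicate 3 (0.0603), aged vehicle replicate 1 (0.145) or 2 (0.0625) and any 1 GB library (0.0525 to 0.154). With totals alone 0 of the 14 were called higher and 11 lower with GB.

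Of 6 genes that move mitochondria along microtubules 0 were called with age by edgeR, 1 had an unadjusted p under 0.05, and DESeq2 and limma-voom called 1 each. With GB 1 was called higher and 4 lower. The kinesin gene Kif1b, which is 17809 bases long, fell from 512 to 139 CPM (-1.88, SE 0.08). The adaptor gene Trak2 fell from 100 to 50.3 CPM (-1.0, SE 0.09) and the kinesin heavy chain gene Kif5b from 123 to 69.2 CPM (-0.83, SE 0.10). All 3 were called under all 23 alternatives, but with sizes that moved by more than 1.5 times, from -2.45 to -0.91 for Kif1b, -1.57 to -0.52 for Trak2 and -1.4 to -0.36 for Kif5b. With the length offset 2 of the 6 genes were called higher and 3 lower.

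Genes of protein import, the porins and citrate synthase, taken as a rough description of mitochondrial content, numbered 11. With age 0 were called by edgeR, 2 had an unadjusted p under 0.05, and DESeq2 and limma-voom called 0. With GB 6 were called higher and 4 lower, and 2 and 5 when scaled by totals alone. Their summed level was 2520 to 2820 CPM in young vehicle, 2810 to 2940 CPM in aged vehicle and, with GB, 2390 to 2870 CPM. The import genes Tomm22, Tomm40 and Tomm20 rose by 1.18 (SE 0.12), 1.18 (SE 0.10) and 0.80 (SE 0.10) on the log2 scale. Over the alternatives Tomm22 had 0.57 to 1.28 and Tomm40 0.62 to 1.29, and Tomm20 had 0.23 and no call when scaled by totals alone (adjusted p = 0.0736). The 4 genes called lower are named after their values were seen. Cs, for citrate synthase of the matrix, fell from 706 to 412 CPM (-0.78, SE 0.07) and the porin gene Vdac1 from 1210 to 876 CPM (-0.46, SE 0.09). The import genes Tomm70a and Timm23 fell from 72.3 to 42.8 CPM (-0.76, SE 0.11) and from 121 to 75.5 CPM (-0.68, SE 0.13). Cs, Vdac1 and Timm23 were called lower under all 23 alternatives, at -1.34 to -0.43, -1.03 to -0.37 and -1.26 to -0.53, and Tomm70a was not called with the length offset (-0.16, adjusted p = 0.274).

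**Figure D5:**
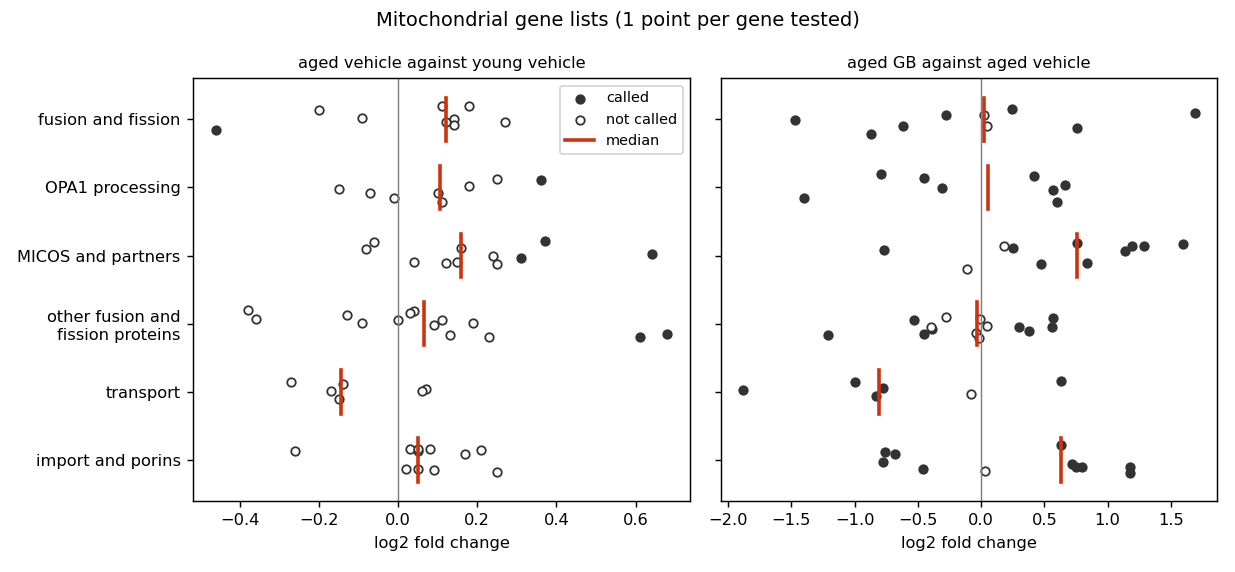
Each point is 1 gene, with its log2 fold change along the bottom and the 6 mitochondrial lists down the side. The left panel is aged against young vehicle and the right panel aged GB against aged vehicle, on separate scales. Filled points were called by edgeR and red bars are list medians. The medians run from -0.15 to 0.16 in the age panel. In the GB panel they run from -0.81 for transport to 0.76 for MICOS and its partners.

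Genes with the most similar pattern were sought among 11046 tested genes of at least 2 CPM, by the root mean square difference of centred log2 CPM over the 9 libraries. For Mfn2 these were Prkar2a, a regulatory subunit of protein kinase A (0.043), and Usp13, a deubiquitinase (0.045). For Opa1 they were the ubiquitin ligase gene Pja2 (0.062) and Kmt2e (0.071). For Fis1 they were Ndufv3 (0.065) and Ndufb4 (0.066), both subunits of respiratory complex I. For Dnm1l they were Ufsp2 and Lztfl1 (0.058 each), and for Mff the translation initiation factor gene Eif3m (0.042) and Hfe (0.047). The other pairs were Acbd5 and Cul4b for Mfn1, Uaca and Smarca4 for Mief1, Emc4 and Ube2j2 for Mief2, and Rmnd5b and Plod1 for Mtfp1, at 0.052 to 0.081. Among the 9 genes the nearest pair on the TMM scale was Mief1 and Mtfp1 at 0.164, then Mfn1 and Dnm1l at 0.197. Of the searched genes, 6.03% were nearer to Mief1 than Mtfp1 was, and 3.71% nearer to Mtfp1 than Mief1 was. With the length offset these 2 genes had 0.53 and -0.55 for GB against aged vehicle. Mfn2 and Opa1 stood 0.288 apart, with 9.70% of the searched genes nearer to Mfn2 than Opa1 was.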

How the data were processed

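Gastrocnemius RNA was extracted with TRIzol and made into KAPA mRNA libraries, per the labels' protocols. The authors deposited 1 table of raw counts per gene with a gene length column. The deposited gene length, in bases, equalled the exon union of GENCODE M21 for 95.2% of 49082 genes matched by symbol. HISAT2, SAMtools, FastQC and DESeq2 appear without versions, beside the builds mm10 and GRCm39, per the submitters' processing notes. How reads were counted, with which annotation and whether by strand is not given in the sources used here. Dnm1l and Mff overlap genes on the opposite strand in GENCODE M21 (0 to 14 counts in any library), and Mief1 overlaps a gene on the same strand, so their values carry that uncertainty.

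The test was that of edgeR 4.0.16 (R 4.3.3), with filterByExpr (minimum count 10, minimum total count 15), TMM factors, and 1 quasi-likelihood fit (robust=TRUE) of all 9 libraries with a mean per group. P-values are two-sided and Benjamini-Hochberg adjusted over the 17534 genes tested. The SE is the log2 fold change divided by the square root of F. Levels are TMM-scaled CPM. Replicates differed by more than sampling noise (chi-square per degree of freedom 16.8 to 61.2) and were used separately. The procedure was tested on simulated counts, with changes planted in the aged vehicle group and scored for age alone. The simulation had no trend with length and does not cover the GB comparisons.

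Alternatives were other scalings and filters, DESeq2 1.42.0, limma-voom (limma 3.58.1), robust=FALSE, fits of 2 groups, a replicate block, an adjusted p under 0.01, leaving out each library, and offsets for each library's lowess trend (span 0.3) with gene length. The offset for length with GC content (known for 95.2% of the genes tested) and the length offset on ratios were added after seeing the data. The members, gene lists and tests were chosen with earlier results of these data known. Named from each other list were up to 3 called genes per comparison with the largest log2 fold change and at least 2 CPM in the higher group. All 9 members were named, and for each the 2 nearest patterns, leaving out predicted, clone and mitochondrially encoded genes. Of the genes so taken for aged GB against young vehicle, those not already named are left out.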

Additional observations from a re-analysis of the deposited data

How the results depend on the processing

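Of the 9 genes, the number called with age was 1, and 2 (Mff added) with DESeq2, limma-voom, the vehicle libraries alone and the filter of 1 CPM; leaving out 1 library gave 1 to 2. It was 7 for GB against aged vehicle (5 to 7 without a library) and 6 for GB against young vehicle (6 without any 1 library). With library totals alone 1 was higher and 7 lower against aged vehicle, and 2 and 6 against young vehicle. The length offset gave 4 higher and 4 lower against aged vehicle, and 4 and 3 against young vehicle. Opa1, Mfn1, Mfn2 and Fis1 kept direction and call for GB against aged vehicle under all 23 alternatives. With library totals alone Mff, Mief1 and Mtfp1 reversed against aged vehicle to -0.33, -0.52 and -0.55, and Mff against young vehicle to -0.05. Mtfp1 reversed to -0.55 with the length offset, with or without the replicate block, and to -0.61 with length and GC. Without a filter Mief1 had -0.02 and Mtfp1 -0.05. Leaving out 1 library gave -0.02 (without aged vehicle replicate 2) to 0.09 (without aged vehicle replicate 1) for Mief1. Mtfp1 had -0.08 without aged vehicle replicate 1, 0.08 without aged vehicle replicate 3 and -0.11 without GB replicate 1. Against young vehicle, Dnm1l and Mief1 became 0.13 and 0.31 with the length offset (0.12 and 0.31 with the replicate block too) and 0.00 and 0.37 with length and GC. Ratio differences with the length offset became -0.01 and 0.37 for Mief2 to Mief1 (GB against aged and young vehicle), -0.92 and -1.0 for Opa1 to Dnm1l, and -0.29 and -0.22 for Mff to Fis1. Beyond what the length offset changes by construction, the cause was not tested. All genes called with age numbered 1508, but 2400 with DESeq2, 650 at an adjusted p under 0.01, and 749 to 2010 without a library. The lowest were 749 and 866 without young vehicle replicates 3 and 2, and 823 and 935 without aged vehicle replicates 3 and 2. The replicate block changed no call among the 9 genes (1, 7 and 6 called). Deviations of same-numbered libraries correlated at -0.10 to 0.14. Of 6 libraries, 4 correlated best with their own number between the vehicle groups, 0 between GB and aged vehicle and 2 between GB and young vehicle. These values do not settle whether the numbers pair libraries, and the main fit treats the libraries as unpaired.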
